A study of Mus musculus with 14 samples.

Results

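Transcript levels were followed for 10 genes of the gp130 pathway in *p65*(-/-) mouse embryonic fibroblasts, a fibroblast line lacking the NF-κB subunit p65 (RelA): the receptor genes *Il6st*, *Il6ra*, *Osmr* and *Lifr*, the kinase *Jak2*, the transcription factor *Stat3* and the inhibitors *Socs1*, *Socs2*, *Socs3* and *Cish*. They were chosen by gene name. The 41174 non-control probes of the array held 18 probes for these 10 genes, and 17 of them were among the 22172 probes tested, the rule for testing being that all arrays of some group had the probe well above background. The exception was a further *Socs2* probe, which was well above background on 1 of 14 arrays and gets no values here. Where a gene had several tested probes, the brightest stands for it, and the others are given beside its main results.

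All cells carried the p65 deletion and had been transduced with the lentiviral vector pTV and selected with blasticidin as pools, so none was a single clone. They re-expressed myc-tagged wild type p65, the triple mutant KTR (K310, K314 and K315 changed to arginine), the double mutant K314/315R (the same change without that of K310), or no p65 (the empty vector pTV). The cells were starved overnight and then given 30 ng/ml mouse TNFα for 3 h, and a further wild type group was collected untreated (0 h). Each group had 3 arrays, except K314/315R with 2. The study's purpose was to learn which NF-κB target genes depend on these acetylated lysines.

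gp130, encoded by *Il6st*, is the signalling chain shared by the receptors for interleukin-6, oncostatin M, leukaemia inhibitory factor and their relatives. Each ligand is recognised by a further chain, and the assembled receptor works through the kinases Jak1, Jak2 and Tyk2, which phosphorylate Stat3 so that it enters the nucleus. The SOCS proteins and Cish are induced by STAT factors and restrain the same pathway, and fibroblasts are a known source of interleukin-6 and a target of oncostatin M.

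The proximal promoters below show the sequences upstream of the genes on which the results turn most: *Jak2* and *Osmr*, both of which were higher with wild type p65 on every probe measured, and *Socs3*, the only inhibitor more than 2-fold higher. Each run is the 250 bases before the gene's start in RefSeq (assembly GRCm38.p6), read 5′ to 3′ on the gene's own strand, and capitals mark a STAT motif, spelled TTCNNNGAA (it reads the same on both strands).

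Jak2, chr19:29251553-29251802 (plus strand): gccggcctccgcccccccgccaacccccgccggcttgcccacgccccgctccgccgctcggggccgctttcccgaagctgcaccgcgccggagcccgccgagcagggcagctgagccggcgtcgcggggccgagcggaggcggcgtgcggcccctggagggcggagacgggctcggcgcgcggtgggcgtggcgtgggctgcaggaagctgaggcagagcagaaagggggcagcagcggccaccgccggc
Osmr, chr15:6874314-6874563 (minus strand): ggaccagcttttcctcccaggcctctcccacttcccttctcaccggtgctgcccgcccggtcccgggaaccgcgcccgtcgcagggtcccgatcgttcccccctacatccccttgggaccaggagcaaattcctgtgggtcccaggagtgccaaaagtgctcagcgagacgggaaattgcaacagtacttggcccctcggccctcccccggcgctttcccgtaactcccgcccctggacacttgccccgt
Socs3, chr11:117969367-117969616 (minus strand): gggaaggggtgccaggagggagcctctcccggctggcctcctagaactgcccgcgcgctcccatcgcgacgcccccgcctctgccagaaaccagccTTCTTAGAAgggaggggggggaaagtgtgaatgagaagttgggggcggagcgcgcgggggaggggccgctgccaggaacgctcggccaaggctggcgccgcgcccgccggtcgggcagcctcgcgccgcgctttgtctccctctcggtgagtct

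The promoter table held 9 of the 10 genes, with 10 promoters. The STAT motif was found in 1 of these 10, that of *Socs3*, as TTCTTAGAA at bases 154 to 146 before the start, against 7.02% of 32851 promoters of the same length. The κB consensus, searched on both strands, was in 0 of the 10 and in 7.25% of all promoters, which says only that these letters are not in these windows.

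Each value below is the log2 of the processed signal minus the log2 of that array's 75th percentile, called the level, and levels of different probes cannot be compared with each other. The 75th percentile ran from 966.7 to 1442 intensity units, and 49.9% to 57.7% of spots were well above background. Slides 1 to 3 each carried 1 array of every group but K314/315R, whereas both K314/315R arrays were on slide 4, so that slide and K314/315R cannot be told apart. KTR replicates 2 and 3 stood apart with 212 and 326 outlier spots, against 1 to 108 on the other arrays. Of 10 fibroblast markers, 9 were well above background on all 14 arrays and *Pdgfrb* on 13. The leukocyte markers *Ptprc*, *Emr1* and *Itgam*, the epithelial markers *Cdh1* and *Tacstd1* and all 4 endothelial markers were so on 0 arrays, while *Cd68* was so on 6, *Krt14* on 12, *Csf1r* and *Krt5* on 13 and *Cd3e* on 14. *Rela* itself gave signal well above background on every array, pTV included. Its brighter probe was at 1.00 to 1.34 in pTV, 0.97 to 1.04 in wild type at 0 h and 1.52 to 1.54 in wild type at 3 h. Where the probes lie relative to the deletion was not known here, so they check no label.

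At 3 h of TNFα, 6 of the 10 genes (*Il6st*, *Osmr*, *Jak2*, *Stat3*, *Socs2* and *Socs3*) were higher in wild type than in pTV and 0 were lower (limma, Benjamini-Hochberg adjusted p under 0.05). Of all tested probes, 8.03% were higher and 6.8% lower. For 4 of the 6 (*Il6st*, *Osmr*, *Jak2* and *Socs3*) the ratio also exceeded 2, the study's limit for this comparison, as it did for 3.59% of all tested probes. The median log2 change of the 10 genes was 0.764 against -0.0342 over all tested probes. The TNFα response within wild type cells was narrower, with 2 of 10 genes higher (*Jak2* and *Cish*) against 2.71% of all tested probes. *Jak2* alone also exceeded the study's ratio of 1.8, as 1.12% of all tested probes did. In neither acetylation mutant did any of the 10 genes pass the test against wild type, where 0.235% (KTR) and 2.21% (K314/315R) of all tested probes passed. With a replicate block *Lifr* (adjusted p = 0.0052) and *Osmr* (0.034) passed in K314/315R, as did 10.7% of all tested probes. The plot of levels by array shows these groups.

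**Figure D1:**
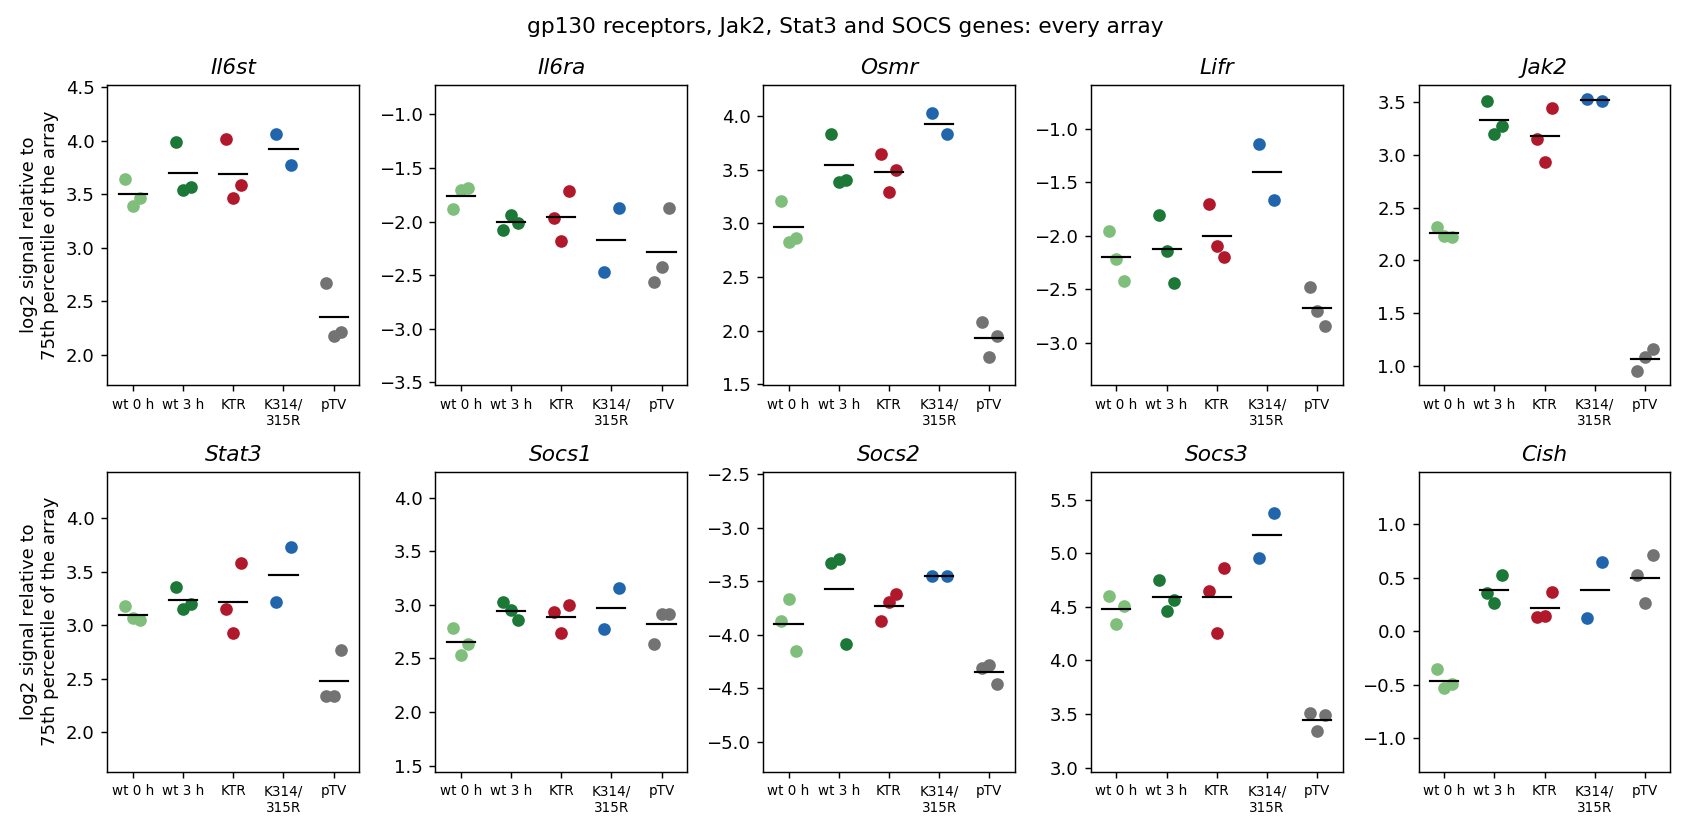
Level of the brightest probe of each gene (vertical axis, log2 units above the array's 75th percentile signal) on every array. Points are arrays and black lines are group means (n = 3; K314/315R n = 2). The pTV points lie below all others for *Il6st*, *Osmr*, *Lifr*, *Jak2*, *Stat3*, *Socs2* and *Socs3*, whereas for *Cish* the wild type 0 h points are the low ones.

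*Il6st* encodes gp130. Its level was 3.98, 3.54 and 3.57 in wild type at 3 h and 2.67, 2.18 and 2.22 in pTV. It was 3.64, 3.39 and 3.46 in wild type at 0 h, 4.02, 3.46 and 3.59 in KTR, and 4.06 and 3.78 in K314/315R. All pTV arrays were below all others, and the remaining groups overlapped except that both K314/315R arrays were above the 0 h arrays. Wild type exceeded pTV 2.53-fold (log2 1.34, SE 0.18, adjusted p = 2.9e-04), and within slides 1 to 3 the log2 difference was 1.31, 1.36 and 1.35. TNFα changed *Il6st* in wild type cells by a log2 of 0.20 (95% confidence interval -0.20 to 0.60, adjusted p = 0.68), which did not pass the test. At 0 h wild type was already 2.21-fold above pTV at 3 h (adjusted p = 8.4e-04).

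*Osmr* encodes the chain that joins gp130 to form the oncostatin M receptor. It measured 3.84, 3.39 and 3.41 in wild type at 3 h against 3.21, 2.83 and 2.87 at 0 h. In pTV it was 2.08, 1.76 and 1.95, in KTR 3.65, 3.30 and 3.50, and in K314/315R 4.03 and 3.83. The pTV arrays were lowest, the 0 h arrays came next, and the 3 h arrays of all p65 forms were above both without overlap. The excess of wild type over pTV was 3.06-fold (log2 1.61, SE 0.16, adjusted p = 1.5e-05), and the second *Osmr* probe, much dimmer, gave the same 3.06-fold (adjusted p = 6.9e-05). For TNFα the brightest probe gained 0.58 on the log2 scale (SE 0.16, adjusted p = 0.060) and missed the threshold, with within-slide differences of 0.63, 0.56 and 0.54. With the slide number as a block it passed (adjusted p = 0.0018). The dimmer probe passed in the unblocked fit as well, at 0.73 (adjusted p = 0.047), a call lost without any of the 6 arrays compared except wild type 0 h replicate 1 (adjusted p up to 0.17).

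*Lifr* and *Il6ra* encode the ligand-binding partner chains for leukaemia inhibitory factor and interleukin-6. The brightest *Lifr* probe ranged from -2.44 to -1.81 in wild type at 3 h and from -2.84 to -2.48 in pTV, without overlap. The log2 difference of 0.55 (SE 0.20) missed the threshold (adjusted p = 0.10) and passed it with the slide block (adjusted p = 7.1e-04). Within the slides it was 0.67, 0.56 and 0.40. Of the 3 dimmer *Lifr* probes, the first differed by -0.19 (adjusted p = 0.75), against the direction of the brightest, and the second by 0.41 (0.41, well above background on 2 of 3 pTV arrays). The third was not well above background on any pTV array and did not pass (adjusted p = 0.15). For *Il6ra*, wild type at 3 h covered -2.08 to -1.93 and pTV -2.57 to -1.87, so the groups overlapped (log2 0.28, 95% confidence interval -0.15 to 0.70, adjusted p = 0.42). Its second probe also missed the threshold (log2 0.51, adjusted p = 0.28).

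*Jak2*, the receptor-associated kinase, had the largest change of the 10 genes in the comparisons of wild type with pTV and of 3 h with 0 h. Its level was 3.50, 3.20 and 3.27 in wild type at 3 h, 2.31, 2.23 and 2.22 at 0 h, and 0.95, 1.09 and 1.16 in pTV. KTR cells measured 3.15, 2.93 and 3.44 and K314/315R cells 3.53 and 3.51. The 3 tiers did not overlap: pTV lay lowest, unstimulated wild type between, and all TNFα-treated cells with a p65 protein on top. TNFα raised *Jak2* 2.10-fold in wild type (log2 1.07, SE 0.13, adjusted p = 5.6e-04), with 1.19, 0.96 and 1.05 within the slides. Wild type exceeded pTV 4.79-fold (log2 2.26, SE 0.13, adjusted p = 1.9e-07), and 0 h wild type was 2.28-fold above pTV (adjusted p = 3.8e-05). The second probe moved the same way, by 1.18 with TNFα (adjusted p = 0.0058) and 1.97 over pTV (adjusted p = 2.5e-05).

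*Stat3* is represented by a probe printed in 10 spots. Its level was 3.36, 3.15 and 3.19 in wild type at 3 h, 3.18, 3.07 and 3.05 at 0 h, and 2.34, 2.34 and 2.77 in pTV. In KTR it was 3.15, 2.92 and 3.58, and in K314/315R 3.21 and 3.72. The pTV arrays were lowest, and the other groups overlapped one another except K314/315R with wild type at 0 h. Wild type exceeded pTV 1.68-fold (log2 0.75, SE 0.18, adjusted p = 0.015), within slides by 1.02, 0.81 and 0.42. This call was lost without wild type 3 h replicate 1 (adjusted p = 0.065), pTV replicate 1 (0.055) or pTV replicate 2 (0.063). The TNFα difference was 0.14 (95% confidence interval -0.26 to 0.53, adjusted p = 0.80). A dim second *Stat3* probe was not well above background on any pTV array or any 0 h array and gives no fold against them. Its wild type over pTV test had an adjusted p of 0.14, and of 0.047 with the slide block.

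**Figure D2:**
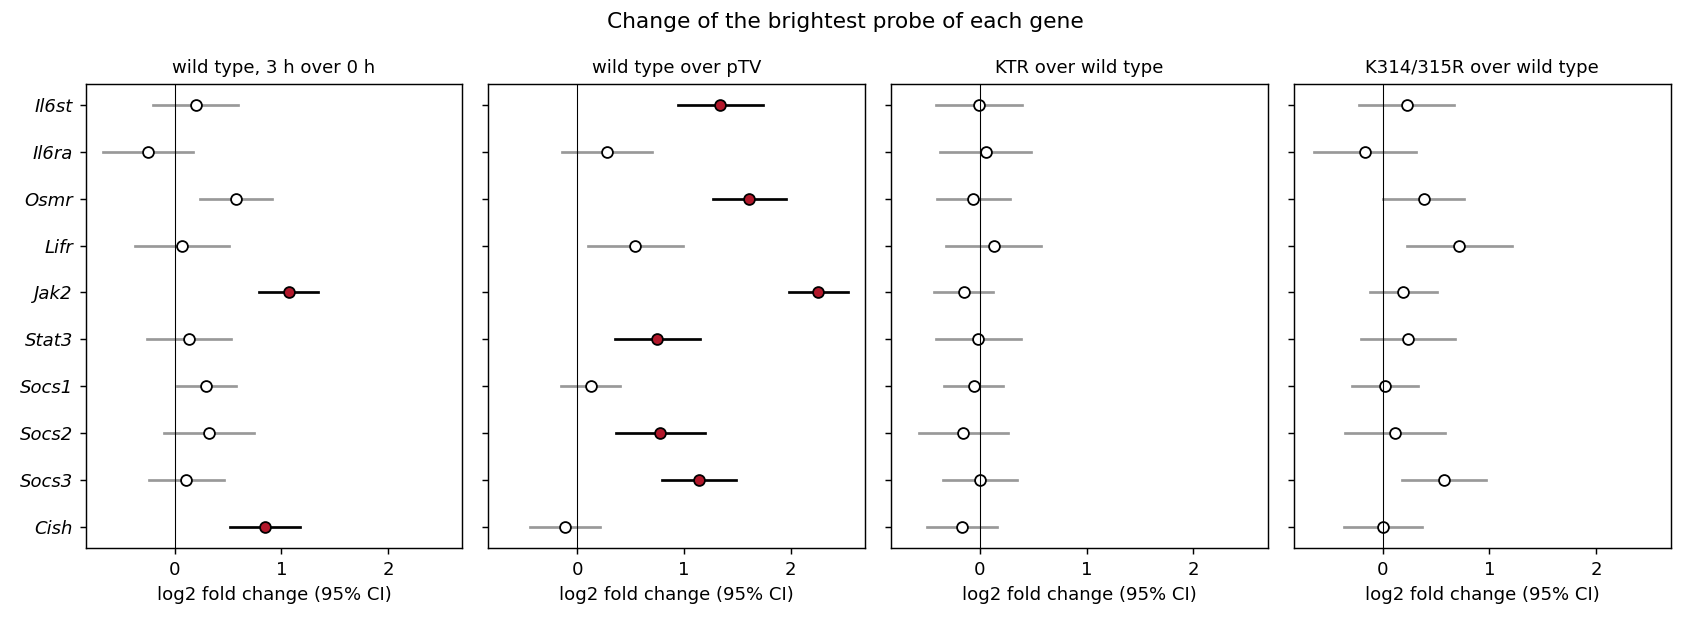
Log2 fold change of the brightest probe of each gene (horizontal axis) with its 95% confidence interval, for TNFα in wild type (3 h over 0 h) and, at 3 h, wild type over pTV and each mutant over wild type. Filled points have a limma adjusted p under 0.05: 2 genes for TNFα, 6 for wild type over pTV, and 0 in each mutant panel.

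Among the inhibitors, *Socs3*, which binds gp130 and blocks the kinases there, had the largest difference between wild type and pTV. Its level was 4.75, 4.46 and 4.56 in wild type at 3 h, 4.60, 4.33 and 4.50 at 0 h, and 3.51, 3.34 and 3.49 in pTV. KTR measured 4.65, 4.25 and 4.86, and K314/315R 4.95 and 5.38. All pTV arrays were below the rest and both K314/315R arrays above it. The excess of wild type over pTV was 2.21-fold (log2 1.14, SE 0.16, adjusted p = 3.5e-04), and already 2.04-fold for the 0 h arrays (adjusted p = 6.7e-04). TNFα made a difference of 0.11 (95% confidence interval -0.24 to 0.46, adjusted p = 0.82). *Socs3* is the gene whose printed promoter holds the STAT motif.

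*Cish*, a SOCS family member best known downstream of Stat5, moved otherwise than *Socs3*. It measured 0.36, 0.27 and 0.52 in wild type at 3 h, -0.35, -0.53 and -0.50 at 0 h, and 0.52, 0.26 and 0.71 in pTV. KTR cells were at 0.14, 0.14 and 0.36 and K314/315R cells at 0.12 and 0.65. The 0 h arrays were below all TNFα-treated arrays, pTV included, and the treated groups overlapped. TNFα raised *Cish* 1.79-fold in wild type (log2 0.84, SE 0.15, adjusted p = 0.0074), whereas wild type and pTV at 3 h differed by -0.11 (95% confidence interval -0.44 to 0.21, adjusted p = 0.72). Because pTV cells were not measured at 0 h, their own response is not known.

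*Socs1* and *Socs2*, which inhibit JAK kinases and growth hormone signalling respectively, varied less. *Socs1* was 3.02, 2.95 and 2.86 in wild type at 3 h and 2.78, 2.53 and 2.63 at 0 h. These did not overlap, yet the log2 difference of 0.30 missed the threshold (adjusted p = 0.25). Against pTV it differed by 0.13 (adjusted p = 0.61), the groups overlapping. The tested *Socs2* probe was dim, at -3.33, -3.30 and -4.09 in wild type at 3 h and -4.31, -4.29 and -4.46 in pTV. Every wild type array was above every pTV array, by 1.71-fold on average (log2 0.78, SE 0.19, adjusted p = 0.016), but the call was lost without wild type 3 h replicate 1 (adjusted p = 0.080), replicate 2 (0.070) or pTV replicate 3 (0.058).

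The order of the groups was shared by much of the set. For the brightest probes of *Il6st*, *Osmr*, *Stat3*, *Jak2* and *Socs2* the mean levels ran from K314/315R through wild type at 3 h, KTR and wild type at 0 h down to pTV. The second *Osmr* probe kept this order. The second *Jak2* probe put KTR (-1.95) and wild type at 3 h (-1.97) above K314/315R (-2.13). The dim *Stat3* probe put KTR (-4.54) above wild type at 3 h (-4.60). Of the neighbours in the order of the brightest probes, wild type at 0 h and pTV differed for *Il6st*, *Osmr*, *Stat3* and *Jak2*, and for *Socs3* too. KTR and wild type at 0 h differed for *Jak2* (adjusted p = 0.0010) and *Cish* (0.014), and for *Osmr* with the slide block alone (0.053 unblocked, 0.0020 blocked). The remaining neighbours among p65-expressing groups did not pass the unblocked test for any of the 10 genes. The replicate block called *Osmr* between K314/315R and wild type (0.034), and *Lifr* (0.0089) and *Socs3* (0.041) between K314/315R and KTR. For K314/315R this block goes by replicate number and does not adjust for slide. In the comparison of wild type at 0 h with pTV at 3 h, 5 of the 10 genes were higher and *Cish* alone was lower, against 12.9% and 10.8% of all tested probes, with time and p65 both differing between these groups. The slide block added *Lifr* (0.48, adjusted p = 0.11 and blocked 0.0012) and *Il6ra* (0.53, 0.070 and blocked 0.027) to the higher genes.

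**Figure D3:**
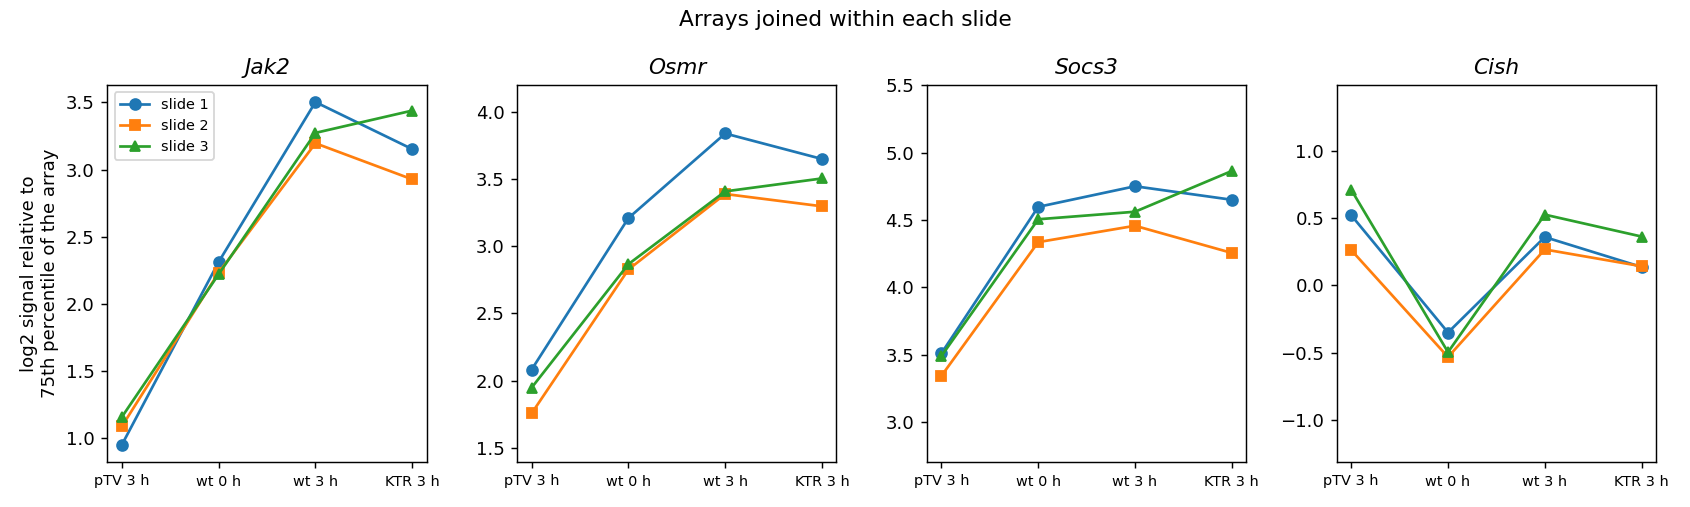
Levels of *Jak2*, *Osmr*, *Socs3* and *Cish* (vertical axes, log2 units above the array's 75th percentile signal) with arrays of a slide joined by a line, for slides 1 to 3. On every slide *Jak2*, *Osmr* and *Socs3* are lowest in pTV, and *Cish* is lowest in wild type at 0 h.

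The acetylation mutants address whether the mutated lysines matter for these transcripts. For KTR over wild type the changes of the 10 genes lay between -0.17 (*Cish*) and 0.13 (*Lifr*), and 0 of 17 probes passed the adjusted test or had an unadjusted p under 0.05, against 0.235% of all tested probes passing. The count was also 0 with KTR replicates 2 and 3 both left out. For *Il6st* the difference was -0.01 (95% confidence interval -0.41 to 0.39) and for *Socs3* 0.00 (-0.35 to 0.35). With 3 arrays a group, a change within these intervals is not excluded, and they set no limit of detection. For K314/315R over wild type, too, 0 of 17 probes passed (limma, adjusted), against 2.21% of all. An unadjusted p under 0.05 was found for 4, a count to which the 2.21% does not apply. The highest values were those of *Lifr* (0.72, adjusted p = 0.12) and *Socs3* (0.58, SE 0.18, adjusted p = 0.12). Both K314/315R arrays lay above all wild type arrays for these genes, as for 19% of all tested probes. A replicate block called *Lifr* (adjusted p = 0.0052) and *Osmr* (0.39, adjusted p = 0.28 unblocked and 0.034 blocked), and 10.7% of all tested probes. A dimmer *Lifr* probe, well above background on 1 of the 2 K314/315R arrays, went the other way (-1.10, adjusted p = 0.096 and blocked 0.0044). The other dim probes differed by 0.15 and 0.63 (adjusted p = 0.85 and 0.40). The probe at 0.63 met the testing rule through the K314/315R arrays alone, so its excess there depends on that rule.

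Between the mutants, 0 of 17 probes differed in the adjusted test, against 5.41% of all tested probes. An unadjusted p under 0.05 was found for 6, a count to which the 5.41% does not apply. KTR was lower than K314/315R on every array for *Socs3* (-0.58, SE 0.18, adjusted p = 0.086, or -0.71 and 0.047 without KTR replicate 3), *Osmr* (-0.45, SE 0.17, 0.16), *Lifr* (-0.59, SE 0.23, 0.16), *Jak2* (-0.35, SE 0.14, 0.18) and *Socs2* (-0.28, SE 0.21, 0.50), as for 12.2% of all tested probes. The second *Jak2* probe overlapped and had the opposite sign (0.18, adjusted p = 0.68). With the replicate block *Socs3* (0.041), *Osmr* (0.015) and the 2 *Lifr* probes (0.0089 and 0.0050, in opposite directions) passed, against 15.5% of all tested probes. For K314/315R that block joins arrays of different slides by number only.

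Both mutants were above pTV. Of the 10 genes 7 were higher in KTR than in pTV, against 9.27% of all tested probes, and 7 in K314/315R, against 12.5%. In both cases these were *Il6st*, *Osmr*, *Lifr*, *Jak2*, *Stat3*, *Socs2* and *Socs3*. Under normexp background correction the *Socs2* difference of KTR from pTV turned to -0.19. Over all alternatives tried, the difference of *Lifr* in KTR from pTV ran from 0.20 to 0.77. In K314/315R that of *Lifr* ran from 0.72 to 1.53 and that of *Socs2* from 0.12 to 1.15. None of these calls held under every alternative. The log2 change over pTV was 2.11 in KTR and 2.45 in K314/315R for *Jak2*, beside 2.26 in wild type. It was 1.55 and 2.00 for *Osmr* (wild type 1.61), 1.33 and 1.57 for *Il6st* (1.34), and 1.14 and 1.72 for *Socs3* (1.14). These comparisons share the pTV arrays. The calls of *Il6st*, *Osmr*, *Jak2* and *Socs3* held without any single array. In KTR, *Stat3* lost its call without KTR replicate 3, pTV replicate 1 or pTV replicate 2 (adjusted p 0.057 to 0.070), *Lifr* without KTR replicate 1 or 2 or pTV replicate 2 or 3 (0.063 to 0.14), and *Socs2* without any of the 6 arrays (0.059 to 0.14). In K314/315R, *Stat3* and *Socs2* lost theirs without replicate 2 (0.060 and 0.056). The *Lifr* probes disagreed: the brightest was higher in K314/315R than in pTV (1.27), and a dimmer one, well above background on 1 of the 2 K314/315R arrays, was lower (-1.29, adjusted p = 0.011, and 0.071 without K314/315R replicate 2). In KTR that probe differed from pTV by -0.34 (adjusted p = 0.49).

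The other genes of the pathway were read from lists of ligands, receptor chains, kinases and STATs, inhibitors and STAT3 target genes. Among 7 tested ligands, TNFα raised 1, against 2.71% of all tested probes. This ligand was *Il6*. It stood at 2.67, 2.22 and 2.39 in wild type at 3 h, at 0.62, 0.34 and 0.36 at 0 h, and at -0.02, -0.82 and 0.03 in pTV. That made 3.95-fold with TNFα (adjusted p = 7.2e-04) and 6.47-fold over pTV (adjusted p = 9.8e-06), without overlap. Over pTV 2 ligands were higher and 3 lower, against 8.03% and 6.8% of all tested probes. Among the lower ones were *Il11* (-2.09, or 4.26-fold lower, adjusted p = 1.3e-05) and the cardiotrophin-like *Clcf1* (-1.04, adjusted p = 0.0014). Both ligands signal through gp130, as interleukin-6 does.

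Of 4 further receptor chains, *Ebi3*, a soluble subunit of interleukin-27, was the only one higher with TNFα (1.18, adjusted p = 0.026; well above background on 1 of 3 arrays at 0 h). Over pTV *Ebi3* and *Il27ra* were higher, against 8.03% of all tested probes (2.71% for TNFα). *Ebi3* was not well above background on any pTV array and was at least 1.90-fold higher in wild type (adjusted p = 1.3e-05). This bound sets the wild type mean against the lowest signal that was well above background on each pTV array. *Il27ra*, the receptor for interleukin-27, was called too (adjusted p = 0.040), but its probe was well above background on 1 of 3 pTV arrays.

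Of 8 further kinases and STATs, 6 were higher in wild type than in pTV and 0 lower, against 8.03% and 6.8% of all tested probes, with a median log2 change of 0.81 against -0.03 over all. Among them were *Stat2*, which acts in interferon signalling and differed by 1.88 (3.68-fold, adjusted p = 1.7e-06), and *Stat5a*, activated by many cytokines, at 1.43 (adjusted p = 1.5e-04). With TNFα *Stat5a* passed (0.77, adjusted p = 0.031). With the slide block *Tyk2* passed as well for TNFα (0.38, adjusted p = 0.11 and blocked 0.0087), and *Jak1* over pTV (0.41, 0.15 and blocked 0.016). The block called 10.6% of all tested probes for TNFα and 23.6% over pTV, against 4.68% and 14.8% without it. Of 11 further inhibitors 0 were higher and 0 lower in wild type than in pTV (limma, adjusted), against 8.03% and 6.8% of all tested probes. At an unadjusted p under 0.05 there was 1, and the list's median was -0.08. With TNFα the STAT3 inhibitor *Pias3* fell by 0.36 on the log2 scale (adjusted p = 0.047) and the other 10 did not pass. With the slide block *Ptpn2*, a phosphatase, passed over pTV (0.24, blocked adjusted p = 0.025) and with TNFα (0.29, 0.021).

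Among 17 tested STAT3 target genes, TNFα raised 7, against 2.71% of all tested probes, and lowered 0, with a median of 0.35 against -0.04 over all tested probes. *Fos*, an immediate early transcription factor, led with 1.47 (adjusted p = 0.0019), followed by *Lbp*, the lipopolysaccharide-binding protein (0.75, adjusted p = 0.049), and the AP-1 subunit *Junb* (0.74, adjusted p = 0.0064). Against pTV, 7 targets were higher and 3 lower (8.03% and 6.8% of all tested probes), with a median of 0.16. The acute phase gene *Hp* (haptoglobin) had the largest change, 153-fold (log2 7.26, adjusted p = 1.6e-08), with 3.21, 2.67 and 2.49 in wild type and -4.37, -4.63 and -4.39 in pTV, 2 of whose arrays were well above background. *Lbp* was at least 5.56-fold higher (adjusted p = 1.5e-08; no pTV array well above background), and the kinase gene *Pim1* 3.45-fold (adjusted p = 3.0e-06). The STAT3 targets lower with wild type p65 were *Vegfa*, *Ccnd1* and *Myc*. With the slide block *Timp1* passed too, with TNFα (0.63, blocked adjusted p = 0.025) and over pTV (0.52, 0.031). Many of these targets are known to respond to NF-κB as well as to STAT3, and the lists were not tested as sets.

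**Figure D4:**
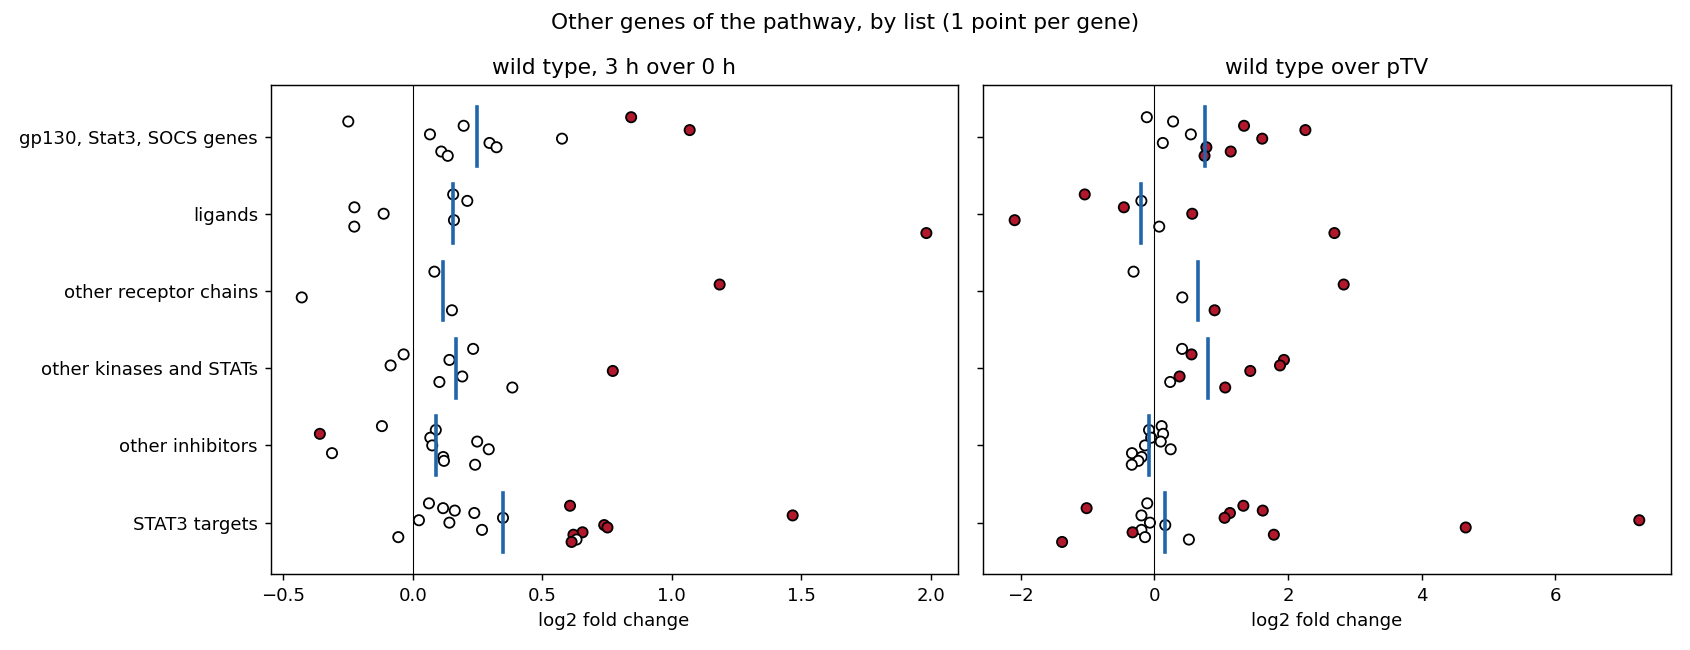
Log2 fold change (horizontal axis) of each tested gene, by list, for TNFα in wild type and for wild type over pTV. Each point is a gene by its brightest probe, filled where the limma adjusted p is under 0.05, and the blue bar is the list's median. The kinase and STAT list sits to the right over pTV (6 of 8 filled) and the inhibitor list around 0 (0 of 11 filled).

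Over the 14 arrays, the genes whose levels followed these most closely were, for *Il6st*, *Fst* (Pearson's r 0.99), *Dpy19l1* (0.98) and *Ppp1r14a* (0.98). For *Osmr* they were *Spata13*, *Birc2* and *Gng12* (0.99, 0.99 and 0.98), for *Stat3* *Lama4*, *Cebpb* and *Mmp9* (0.97, 0.96 and 0.96), and for *Socs3* *Nek6*, *Saa2* and *Lama4* (0.98 each). Arrays of a group share their treatment, and the step between pTV and the rest is common to all of these values, so that they are a description only.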

How the data were processed

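RNA from 14 cultures, described by the submitters as biological replicates, was hybridised to one-colour (Cy3) mouse arrays. Per the file headers and the labels, the deposited intensity values are Agilent Feature Extraction (9.1) processed signals, background-subtracted and not normalised between arrays. The deposited value table was used as an alternative. On each array 99.67% to 99.82% of its values were close to the same signals times 1 factor per array. The authors' ratios and p-values were not used. Signals were scaled to each array's 75th percentile and log2 transformed, spots of a probe were averaged, and outlier spots and control spots were left out. A probe was tested if all arrays of some group had it well above background (22172 of 41174). limma (3.58.1, R 4.3.3) fitted all 14 arrays together, and p-values were Benjamini-Hochberg adjusted over all tested probes at 0.05. The study's ratio limits (1.8, and 2 for wild type over pTV) gave a second count. The number of arrays limits the precision. The code was tested on simulated data.

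Named genes were the 10 members, up to 3 genes past the test with the largest change per pathway list, and the 3 most similar genes for 4 members. Some genes that this rule or the marker lists would name are not reported here. The members and lists were chosen with earlier results of these data known. Wild type at 0 h over pTV at 3 h was added after the values were seen, for the order of levels. Promoter sequences came from RefSeq (GRCm38.p6).

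Replicate numbers equal slides 1 to 3, and same-numbered arrays of these slides deviated together from their group means (r from 0.308 to 0.613 in 18 pairs; -0.51 to 0.0954 in 36 others). Pairs with K314/315R, on slide 4, ran from -0.101 to 0.411.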

Additional observations from a re-analysis of the deposited data

How the results depend on the processing

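The number of probes called, of 17, changed most with the background. Under normexp correction (offset 50) it was 0 for TNFα (4 otherwise), 3 for wild type over pTV (8), 4 for KTR over pTV (9) and 4 for K314/315R over pTV (12), while over all tested probes 0.104%, 1.74%, 2.03% and 2.41% were called. *Jak2* and *Cish* then had adjusted p of 0.26 and 0.25 for TNFα at 0.76 and 0.73 on the log2 scale, and for wild type over pTV *Socs3*, *Stat3* and *Socs2* had 0.11, 0.75 and 1.00. It moved the median of all probes by 0.11 for TNFα and -0.101 for KTR over wild type. Direction turned for *Socs2* in KTR over pTV (-0.19) and the dim *Stat3* probe in K314/315R over pTV (-0.045). The cause was not tested. Of the 12 calls for K314/315R over pTV, 11 were higher and 1 was lower. Among the 11, the dim *Stat3* probe (0.97) and the dimmest *Lifr* probe (1.40) met the testing rule through the K314/315R arrays alone. Their calls there depend on that rule.

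With the study's ratio limits TNFα kept 2 calls. K314/315R over wild type had 4 at an unadjusted p and 3 with the replicate block. KTR over K314/315R had 6 and 4, and 1 with the authors' values. The block called 10.7% and 15.5% of all tested probes in these comparisons, against 2.21% and 5.41% without it. For KTR and K314/315R over pTV it called 25% and 39.9%, against 15.2% and 26%. Besides the calls given above, the replicate block added the dim *Stat3* probe in KTR over pTV (adjusted p = 0.032) and a dim *Lifr* probe in K314/315R over pTV (0.048). It removed no call of the 10 genes and changed no other of theirs in these comparisons. Leaving out each array in turn gave 3 to 4 calls for TNFα, 6 to 8 for wild type over pTV, 0 to 0 for either mutant over wild type, 6 to 8 for KTR over pTV, 9 to 12 for K314/315R over pTV and 0 to 1 for KTR over K314/315R. With KTR replicates 2 and 3 both left out, an alternative chosen after seeing the data, KTR over wild type, pTV and K314/315R gave 0, 7 and 0, the lone KTR array being assumed to vary like the other groups. Of 33 called probe results, 11 stayed called under every alternative, among them *Il6st* in all comparisons with pTV, and 22 were lost under at least 1.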

Other observations

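The 10 spots of the *Stat3* probe allow its scatter within an array to be read: the coefficient of variation of the spot signals was 12.7% on KTR replicate 2 (8 spots used) and 21% on KTR replicate 3, whose level of 3.58 was the highest of the KTR arrays for *Stat3*. On the other 12 arrays it ran from 1.31% to 3.64%.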
